A study of Saccharomyces cerevisiae with 6 samples.

Results

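Anti-FLAG ChIP-seq signal was examined over 10 genes of Saccharomyces cerevisiae that encode translation elongation and initiation factors: TEF1, TEF2, TEF4, EFB1, EFT1, EFT2, YEF3, HYP2, TIF1 and TIF2. The genes were chosen by name from a total of 5996 nuclear protein-coding genes used, and all 10 were found in the R64 gene table and passed the filter on low counts. For each gene the 1000 bp upstream of the start codon (called the promoter here) and the gene body, from start to stop codon, were measured. The study comprised 3 samples of the rpd3Δ genotype (strain YHy17) and 3 of the WT genotype (strain OAy1102). Rpd3 is a histone deacetylase and the catalytic subunit of large chromatin-modifying complexes. All 6 samples were grown in YEPD at 23 °C, arrested in G1 by α-factor, a mating pheromone, and cross-linked with formaldehyde. Both genotypes had 0 counts over BAR1, the gene of the protease that cleaves α-factor. Each genotype is represented by 1 strain, so that genotype and strain cannot be told apart. Whether the 3 samples per genotype were separate cultures is not stated, and p-values therefore cover only how these samples scatter, which could be technical scatter. The labels do not name the FLAG-tagged protein, and no unprecipitated input was used here, so a value is a signal and not a level of transcription.

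Elongation factors carry the ribosome through each cycle of peptide synthesis. The factor eEF1A delivers aminoacyl-tRNA, eEF1B recharges eEF1A with GTP, eEF2 moves the ribosome along the message, and eEF3 is an ATPase found in fungi that every yeast elongation cycle needs. The factor eIF5A carries the modified residue hypusine and helps the ribosome through difficult peptide bonds, and the RNA helicase eIF4A unwinds the leaders of messages during initiation. These genes are known to be among the most highly expressed in growing yeast, and several were kept as duplicated copies after the ancient whole-genome duplication.

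The summed count per sample was 4888453 to 6785491 in rpd3Δ and 3987250 to 5907739 in WT. The ribosomal DNA took 55.2% to 62.7% of it in rpd3Δ and 36.6% to 48.7% in WT. Outside the ribosomal DNA 1920400 to 2800793 counts were left in rpd3Δ samples and 2045874 to 3746388 in WT samples, with a median of 7 to 9 and 7 to 12 counts per 50 bp bin. As a check of the labels, signal over RPD3 itself averaged 0.0955 ± 0.0201 of the mean bin outside the ribosomal DNA in rpd3Δ and 0.844 ± 0.0909 in WT (SD, n = 3 each). Single libraries stood apart at the 10 promoters. The first rpd3Δ sample was the highest of its genotype for 8 of the 10, and the third WT sample was the lowest of its genotype for 9 of the 10. The part of these libraries in each promoter difference was not tested beyond leaving them out.

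The 10 genes carried more signal over their bodies than most genes, and the excess was much the same in both genotypes. Signal is given in times local background, the mean count per bin in a window over the median bin of the surrounding 20 kb. The local median was 5 to 18 counts, so the scale moves in coarse steps. The median of the 10 bodies was 2.10 ± 0.133 times local background in rpd3Δ and 2.02 ± 0.101 in WT (SD, n = 3 each), where the median of all genes was 1.01 in rpd3Δ and 0.999 in WT. In both genotypes all 10 bodies lay above the 75th percentile of all bodies, and 7 in rpd3Δ and 6 in WT lay above the 90th. Upstream the genes stood out less. The median of the 10 promoters was 1.40 ± 0.187 in rpd3Δ and 1.41 ± 0.174 in WT, against 1.11 and 1.14 for all genes, and 2 promoters in rpd3Δ and 1 in WT lay above the 90th percentile. Most of these windows overlap a neighbouring gene, and the excess was larger in narrower windows. Over the intergenic part alone the median was 1.66 ± 0.0852 in rpd3Δ and 1.77 ± 0.257 in WT, against 1.16 and 1.21 for all genes. Over 500 bp upstream it was 1.61 ± 0.107 in rpd3Δ and 1.69 ± 0.192 in WT, against 1.12 and 1.17. Beyond the stop codon the signal went on, with a median over the following 500 bp of 2.10 ± 0.135 in rpd3Δ and 2.08 ± 0.0804 in WT, against 1.13 and 1.12 for all genes. For 6 of the 10 genes this stretch reaches into the next gene. Sample ranges of the 2 genotypes overlapped for the medians of the 10 genes in each of these windows.

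**Figure D1:**
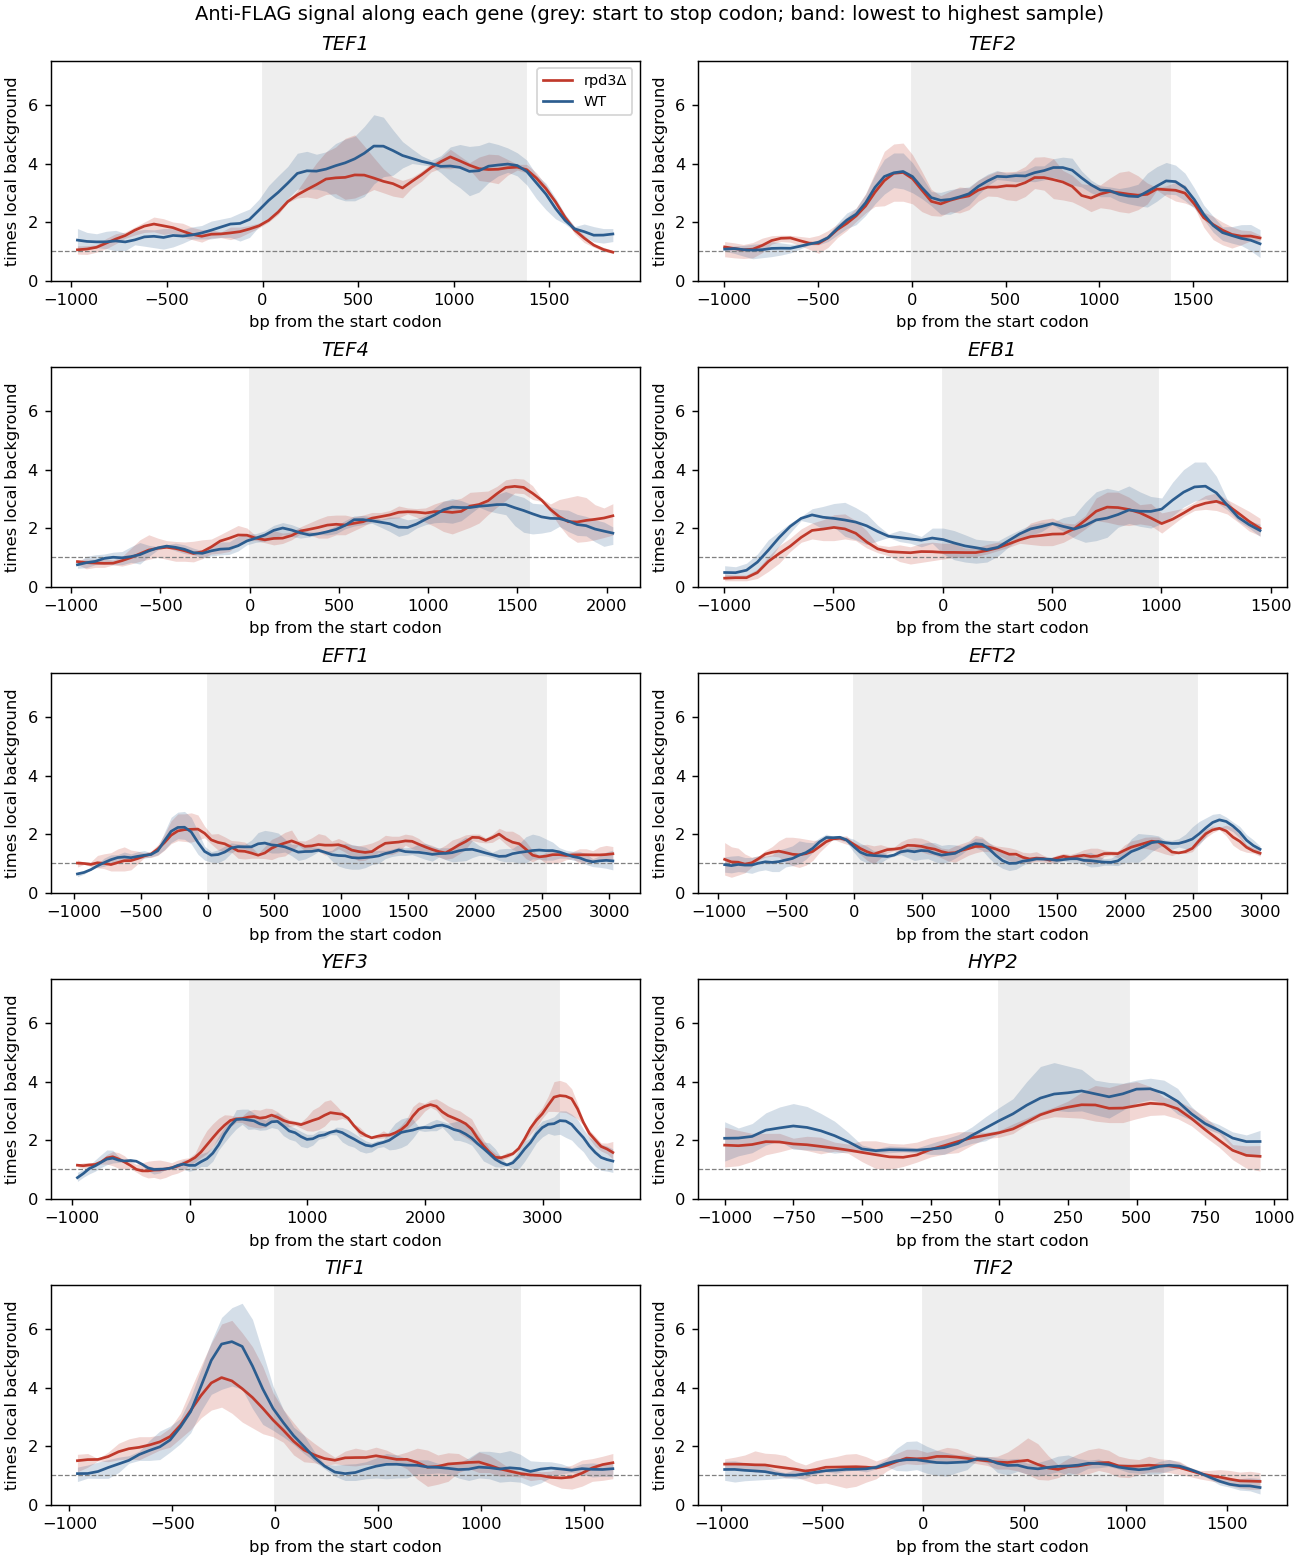
Anti-FLAG signal, smoothed over 250 bp and in times local background (vertical axis), against distance in bp from the start codon (horizontal axis) for each of the 10 genes. Lines are means of 3 rpd3Δ and 3 WT samples, bands run from the lowest to the highest sample, grey marks the body, and the dashed line is the local median. TEF1, TEF4, YEF3 and HYP2 carry a broad signal from start to stop codon, and TIF1 carries a single upstream maximum (4.34 in rpd3Δ, 5.57 in WT). EFT1, EFT2 and TIF2 stay low among the 10 genes.

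TEF1 and TEF2 encode identical copies of eEF1A, and their bodies were near the top of the genome. TEF1 (YPR080W, chromosome XVI, 700594 to 701970) had 3.83, 3.30 and 3.32 times local background over its body in rpd3Δ samples, against 3.95, 4.59 and 3.27 in WT samples. TEF2 (YBR118W, chromosome II, 477671 to 479047) had 3.44, 3.06 and 2.67 in rpd3Δ and 3.49, 3.34 and 2.91 in WT. These values placed TEF1 at the 99.3rd and TEF2 at the 98.9th percentile of all bodies in WT, and for both genes the samples of the 2 genotypes overlapped. The upstream regions of the copies differed in shape. In the mean profile TEF2 had a second maximum centred 45 bp before the start codon, of 3.69 times local background in rpd3Δ and 3.73 in WT, close to the highest point of its body (3.52 in rpd3Δ, 3.86 in WT). TEF1 reached 1.93 upstream in rpd3Δ, 568 bp before the start codon, against 4.23 in its body. In WT it reached 2.41 at 18 bp before the start codon, against 4.60 in its body. At that place the smoothing over 250 bp takes in bins of the body, so the 2 upstream values are not the same feature. Over the last 500 bp before the start codon TEF1 had 0.563 to 0.713 of the TEF2 signal in rpd3Δ samples and 0.583 to 0.615 in WT samples, and was the lower copy in 6 of 6.

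Because the coding sequences of the copies are nearly the same, reads from inside them cannot be placed with certainty. How the authors placed reads with several matches is not given in the sources used here. No bin inside any of the 10 bodies was empty in any sample, and the lowest bin held 14 counts in TEF1 and 15 in TEF2. Counts per bin over the body of TEF1 were 0.882 to 0.965 of those over TEF2 in rpd3Δ samples and 0.924 to 1.10 in WT samples. The body values of TEF1, TEF2, EFT1, EFT2, TIF1 and TIF2 are therefore uncertain for each single copy.

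TEF4 and EFB1, which encode subunits of eEF1B, carried a signal that was higher toward the 3′ end. TEF4 (YKL081W, chromosome XI, 282891 to 284455), which encodes a form of the gamma subunit, had 2.61, 2.45 and 2.15 times local background over its body in rpd3Δ and 2.33, 2.28 and 2.20 in WT. Its promoter had 1.15, 1.27 and 1.19 in rpd3Δ and 1.16, 1.12 and 1.14 in WT, close to the median of all promoters. RRP14 covers 439 bp of this window. The intergenic part alone had 1.44 ± 0.164 in rpd3Δ and 1.30 ± 0.00714 in WT (SD, n = 3 each), where the median of all genes was 1.16 and 1.21. EFB1 (YAL003W, chromosome I, 142174 to 143160), which encodes the alpha subunit that exchanges GDP for GTP on eEF1A, had 2.05, 1.57 and 1.91 over its body in rpd3Δ and 1.88, 1.86 and 2.09 in WT. The body ranges of the 2 genotypes overlapped for both genes. The mean profile of TEF4 was highest near its stop codon, at 3.43 in rpd3Δ and 2.80 in WT, and in all 6 samples the maximum lay inside the body. The mean profile of EFB1 was highest beyond its stop codon, by 265 bp in rpd3Δ (2.91) and 215 bp in WT (3.43), inside the 546 bp that separate it from VPS8. In single samples the EFB1 maximum lay there in 1 of 3 rpd3Δ and 2 of 3 WT samples, and inside the body in the others.

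A comparison of the last with the first part of each body, cut into 3 equal stretches, was added after these shapes had been seen. In this edgeR quasi-likelihood fit TEF4 was higher at its 3′ end by a log2 ratio of 0.70 (SE 0.142, adjusted p = 4.03e-05) in rpd3Δ and 0.56 (SE 0.139, adjusted p = 9.00e-04) in WT. EFB1 was higher there by 1.13 (SE 0.218, adjusted p = 1.54e-05) in rpd3Δ and 0.81 (SE 0.211, adjusted p = 0.00155) in WT. CAM1, the other gene for the gamma subunit and not one of the 10, went the other way, at -0.79 (adjusted p = 0.00116) in rpd3Δ and -0.90 (adjusted p = 1.76e-04) in WT. TEF1 passed in rpd3Δ (0.38, adjusted p = 0.0150) and did not pass in WT (0.14, adjusted p = 0.446). Of all genes tested, 16.8% were called higher at the 3′ end in rpd3Δ and 13.9% in WT, while 11.7% and 14.2% were called lower, and none of the 10 genes was called lower. The difference between the genotypes passed for none of the 10 genes (0 at an unadjusted p under 0.05) and for 0.0515% of all genes. Introns of both genes hold a small nucleolar RNA gene, SNR38 in TEF4 and SNR18 in EFB1. SNR38 had 2.25 ± 0.294 times local background in rpd3Δ and 1.73 ± 0.135 in WT, and SNR18 had 1.03 ± 0.258 in rpd3Δ and 1.20 ± 0.262 in WT (SD, n = 3 each, over 2 bins).

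EFT1 and EFT2, identical copies of eEF2, had a low and even signal along their long bodies. EFT1 (YOR133W, chromosome XV, 575098 to 577626) had 1.60, 1.56 and 1.63 times local background in rpd3Δ and 1.40, 1.36 and 1.43 in WT. EFT2 (YDR385W, chromosome IV, 1243230 to 1245758) had 1.35, 1.39 and 1.47 in rpd3Δ and 1.31, 1.28 and 1.39 in WT. On this scale all rpd3Δ samples lay above all WT samples for EFT1, and for EFT2 the ranges overlapped. In counts per bin scaled to a common library size this was reversed. EFT1 overlapped (16.6, 16.2 and 17.6 in rpd3Δ, 15.1, 15.2 and 16.4 in WT). EFT2 did not (19.1, 18.7 and 19.8 in rpd3Δ, 16.7, 16.1 and 17.7 in WT). Which copy separated thus depended on the scale. The copies shared a modest rise before the start codon and differed at the other end. The mean profile of EFT1 was highest upstream, at 2.17 in rpd3Δ (72 bp before the start codon) and 2.24 in WT (172 bp before it), but single samples had their maximum there in 1 of 3 rpd3Δ and 2 of 3 WT cases and inside the body otherwise. EFT2 reached 1.86 in rpd3Δ and 1.89 in WT at 104 bp upstream, and its highest signal, 2.20 in rpd3Δ and 2.49 in WT, lay past its stop codon in all 6 samples, in the 325 bp before MUS81. Over the 500 bp after the stop codon EFT1 had 0.642 to 0.781 of the EFT2 signal in rpd3Δ samples and 0.535 to 0.633 in WT samples.

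YEF3 (YLR249W, chromosome XII, 636780 to 639914), which encodes eEF3, had 2.45, 2.46 and 2.48 times local background over its body in rpd3Δ, against 2.03, 2.09 and 2.19 in WT. The 3 rpd3Δ samples were close together and all lay above the 3 WT samples. Its promoter had 1.20, 1.03 and 0.883 in rpd3Δ and 1.06, 1.16 and 1.01 in WT, the lowest WT mean of the 10 promoters and near the background. The body signal rose and fell along the gene, and dropped before a last maximum at the stop codon of 3.52 in rpd3Δ and 2.67 in WT.

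HYP2 (YEL034W, chromosome V, 85676 to 86149), which encodes the main form of eIF5A, is the shortest of the 10 genes. Its body had 2.92, 2.60 and 3.20 times local background in rpd3Δ and 2.77, 4.03 and 3.37 in WT, with the second WT sample the highest and the ranges overlapping. Its promoter had 1.94, 1.49 and 1.83 in rpd3Δ and 1.86, 2.33 and 1.82 in WT. The mean profile was highest 76 bp past the stop codon, at 3.26 in rpd3Δ and 3.76 in WT. The maximum of single samples lay past the stop codon in 2 of 3 rpd3Δ and 1 of 3 WT samples, and inside the body in the others. MTC7 begins 29 bp after HYP2, and the divergent UTR5 lies wholly inside the upstream window, so the signal of these neighbours is part of the values.

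TIF1 and TIF2 encode identical copies of the helicase eIF4A, and differed most among the pairs in their upstream regions. The TIF1 promoter (YKR059W, chromosome XI, 554987 to 556174) had 3.49, 2.44 and 2.30 times local background in rpd3Δ and 3.03, 3.44 and 2.36 in WT, at the 95.9th percentile of all promoters in WT. Its signal formed a single maximum 261 bp upstream of the start codon in rpd3Δ (4.34) and 211 bp upstream in WT (5.57), and the maximum was upstream in all 6 samples. TIF2 (YJL138C, chromosome X, 153504 to 154691, minus strand) had 1.52, 1.57 and 1.01 in rpd3Δ and 1.22, 1.25 and 1.19 in WT. The ranges of the genotypes overlapped for both promoters. TIF1 had 1.56 to 2.30 times the TIF2 promoter signal in rpd3Δ samples and 1.98 to 2.74 times in WT samples, higher in 6 of 6. The windows overlap the body of GLG1 by 634 bp at TIF1 and that of GLG2 by 707 bp at TIF2. Over the intergenic part alone the ratio was 1.68 to 4.32 in rpd3Δ and 2.67 to 4.77 in WT. The bodies did not separate, with a ratio of 1.02 to 1.20 in rpd3Δ and 0.872 to 1.18 in WT. As reads inside the copies cannot be placed with certainty, this ratio cannot show whether the bodies differ.

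**Figure D2:**
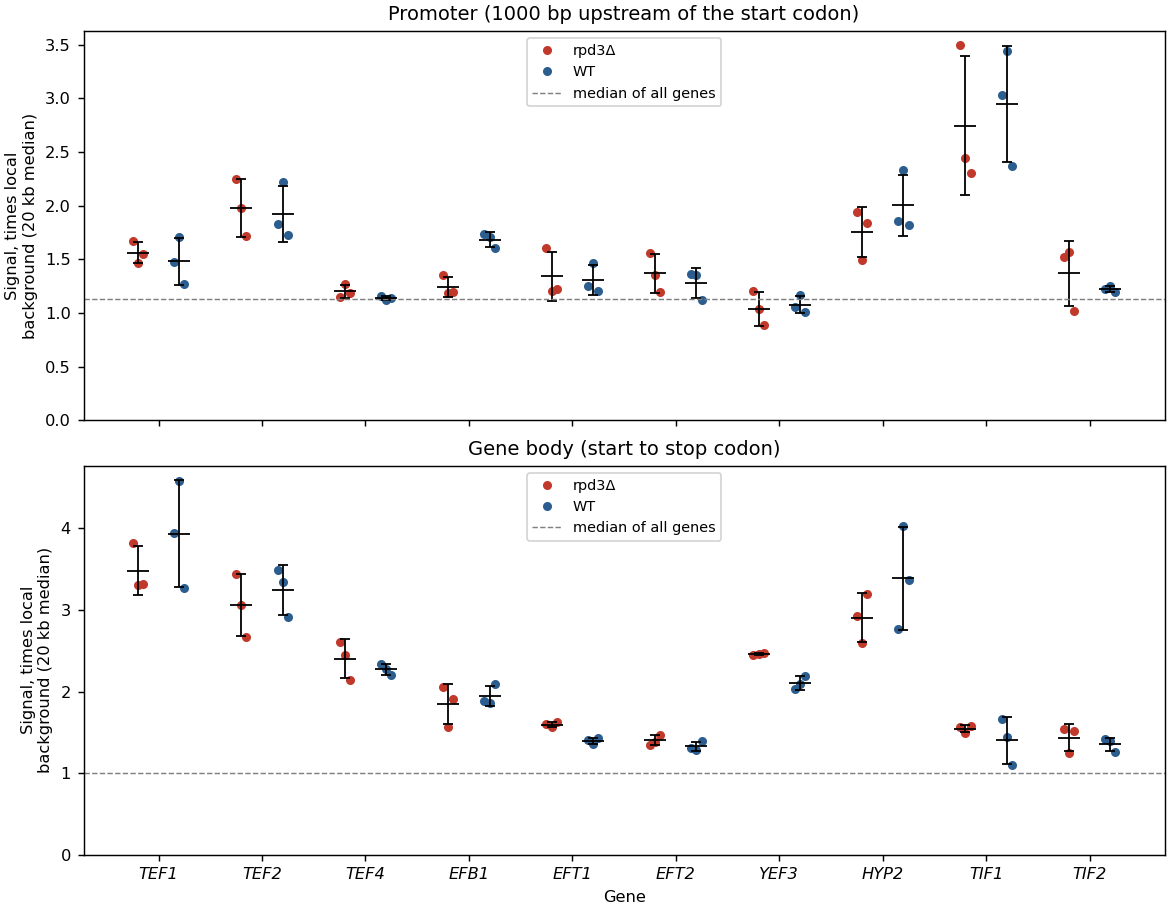
Signal in times local background (vertical axis) over the promoter (top) and the gene body (bottom) of each of the 10 genes (horizontal axis). Points are single samples of rpd3Δ (red) and WT (blue), bars are mean ± SD with n = 3 each, and the dashed line is the median of all genes. The TIF1 promoter stands highest in the top panel, and in the bottom panel TEF1, TEF2, HYP2, TEF4 and YEF3 stand above the rest.

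The balance of promoter against body was then tested in each genotype, with counts of both windows of each sample in one edgeR quasi-likelihood fit that keeps the sample as a block. The promoter was lower than the body for 6 of the 10 genes in rpd3Δ and for 5 in WT, and higher for 1 gene in both. Of all 5975 genes tested, 15.5% were called lower in the promoter in rpd3Δ and 14.1% in WT, while 32.6% and 37.5% were called higher. The median log2 ratio of promoter over body was -0.62 in rpd3Δ and -0.47 in WT for the 10 genes, and 0.14 in rpd3Δ and 0.17 in WT for all genes. TEF1 had the lowest ratio of the 10 genes, -1.16 (SE 0.124, adjusted p = 1.07e-10) in rpd3Δ and -1.32 (SE 0.123, adjusted p = 1.76e-12) in WT, below all but 0.854% of genes in WT. TEF4, YEF3, HYP2 and TEF2 followed, with ratios of -0.68 to -1.11 in rpd3Δ and -0.75 to -1.01 in WT, all past the threshold in both genotypes. EFB1 passed in rpd3Δ (-0.56, adjusted p = 6.17e-04) and did not pass in WT (-0.20, adjusted p = 0.197). TIF1 had the opposite balance, 0.81 (SE 0.133, adjusted p = 1.65e-06) in rpd3Δ and 1.08 (SE 0.131, adjusted p = 2.15e-09) in WT. EFT1, EFT2 and TIF2 passed in neither genotype, with ratios of -0.17 to -0.00 in rpd3Δ and -0.15 to -0.01 in WT. The ratios of TEF1, TEF2, EFT1, EFT2, TIF1 and TIF2 rest on bodies whose reads cannot be placed with certainty. They and their p-values are therefore uncertain for each single copy.

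The length of the upstream window set some of these calls. With 500 bp upstream, the ratio of TEF2 in WT was -0.29 (adjusted p = 0.0717) and no longer passed. With only the intergenic part of the window, EFT1, whose window overlaps VPS17 by 733 bp, turned to 0.58 in WT and passed in the promoter's favour (adjusted p = 0.00249).

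**Figure D3:**
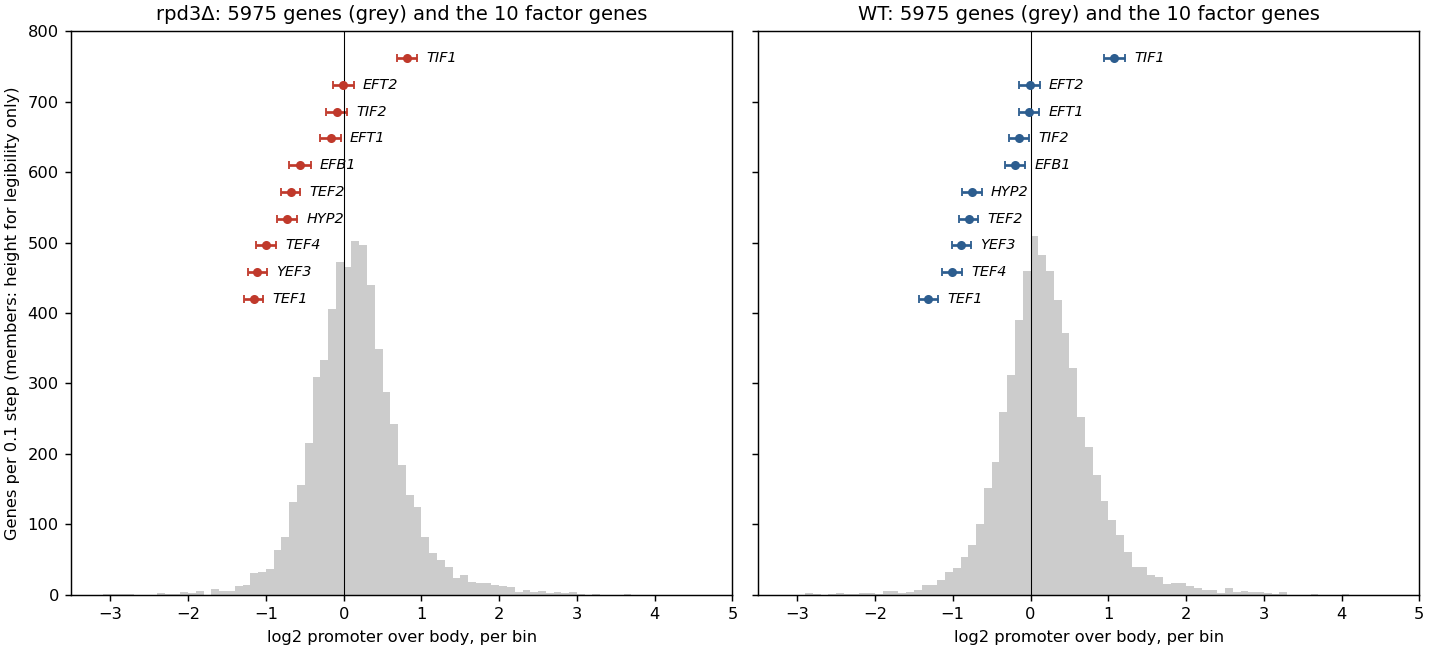
Log2 ratio of promoter over body signal per bin (horizontal axis) in rpd3Δ (left) and WT (right), with the number of genes per step of 0.1 (vertical axis, grey). Points are the 10 genes with their standard errors, placed at heights chosen for legibility. TIF1 is the gene to the right of 0, TEF1 is the farthest to the left, and EFT1, EFT2 and TIF2 lie near 0 in both panels.

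A difference in this balance between rpd3Δ and WT passed the test for none of the 10 genes. The interaction term of the same fit passed for 0 members by edgeR (0 at an unadjusted p under 0.05; 0 by limma on log2 ratios), and for 0.184% of all genes. The estimates, rpd3Δ minus WT, ran from -0.36 for EFB1 (SE 0.187, adjusted p = 0.618) to 0.16 for TEF1 (SE 0.173, adjusted p = 0.833). With standard errors of 0.171 to 0.190 per gene, differences of the size of most estimates could not be resolved with 3 samples per genotype. In the log2 ratio of single samples, 2 of the 10 genes did not overlap between the genotypes. EFB1 had -0.60, -0.41 and -0.68 in rpd3Δ and -0.11, -0.13 and -0.39 in WT, lower in every rpd3Δ sample. TEF1 had -1.20, -1.17 and -1.10 in rpd3Δ and -1.27, -1.31 and -1.37 in WT, higher in every rpd3Δ sample. Of all genes 13.9% did not overlap, 4.79% higher in rpd3Δ and 9.1% lower, and the exact permutation p of 0.1 for both genes is the smallest that 3 against 3 samples allow. The call of EFB1 in rpd3Δ alone is therefore not shown to be a difference between the genotypes.

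Promoter signal was compared directly next, by edgeR on promoter counts scaled on background bins. EFB1 was the only one of the 10 promoters to pass, and it was lower in rpd3Δ, with 6.15% of all promoters called, 4.26% lower and 1.89% higher. Its counts per sample were 189, 166 and 119 in rpd3Δ and 243, 342 and 160 in WT. Scaled to a common library size these were 8.93, 8.61 and 8.04 counts per bin in rpd3Δ and 11.88, 11.97 and 10.18 in WT. In times local background they were 1.35, 1.19 and 1.19 in rpd3Δ and 1.74, 1.71 and 1.60 in WT. All 3 rpd3Δ samples lay below all 3 WT samples on both scales. The log2 fold change was -0.41 (SE 0.136), and the adjusted p of 0.0480 was just inside the threshold. An exact permutation test on times local background gave p = 0.1, the smallest that 3 against 3 samples allow. The call was lost when any of rpd3Δ samples 1 to 3 or WT samples 1 and 2 was left out (adjusted p 0.0511 to 0.232, log2 fold change -0.37 to -0.45), and with DESeq2 (-0.37, adjusted p = 0.180).

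The EFB1 window is shared with SSA1, a gene for a cytosolic Hsp70 chaperone that is transcribed in the other direction. The start codons of EFB1 and SSA1 are 742 bp apart. The promoter window of SSA1 had 1.51, 1.32 and 1.52 times local background in rpd3Δ and 1.94, 2.03 and 1.61 in WT. These ranges did not overlap either, and the log2 fold change of -0.35 (SE 0.134, adjusted p = 0.102) did not pass. The values of the 2 windows come largely from the same bins and are not independent.

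For the other 9 promoters the log2 fold change lay between -0.26 and 0.21, and none passed. The lowest were HYP2 (-0.26, SE 0.144, adjusted p = 0.327) and TIF1 (-0.17, SE 0.166, adjusted p = 0.611), and the highest was EFT2 (0.21, SE 0.151, adjusted p = 0.456). The median over the 10 promoters was 0.08, and -0.04 over all promoters tested. In times local background EFB1 was the only one of the 10 whose samples did not overlap between the genotypes, where 14.1% of all promoters did not overlap, 9.57% lower in rpd3Δ and 4.56% higher.

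Over the bodies YEF3 was the only one of the 10 genes to pass in the same kind of fit, and it was higher in rpd3Δ, with 7.39% of all bodies called, 4.31% higher and 3.08% lower. Its body held 2278, 2136 and 1690 counts in rpd3Δ samples and 1634, 2338 and 1357 in WT samples. After scaling these were 34.7, 35.7 and 36.9 counts per bin in rpd3Δ, against 25.8, 26.4 and 27.8 in WT. The groups were well apart, at a log2 fold change of 0.42 (SE 0.0687, adjusted p = 4.10e-05). The call held when any 1 sample was left out (0.40 to 0.45). The surroundings of the gene moved with it. YEF3 lies 167 kb from the ribosomal DNA on its right side. The scaled median of the 20 kb around the gene was 14.5 ± 0.351 counts per bin in rpd3Δ and 12.7 ± 0.0669 in WT (SD, n = 3 each), with no overlap. Before scaling these medians were 15, 14 and 11 counts in rpd3Δ and 13, 18 and 10 in WT. They are thus coarse, which their SDs do not show, and the 20 kb include the 62 bins of the YEF3 body itself. With that local background as an offset the fold change was 0.23 (SE 0.0705, adjusted p = 0.133) and did not pass.

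Next to YEF3 stood EFT2, with a body log2 fold change of 0.19 (SE 0.0851, adjusted p = 0.170), and at the other end HYP2, with -0.29 (SE 0.131, adjusted p = 0.179). The remaining 7 bodies had log2 fold changes between -0.12 and 0.11. The median over the 10 bodies was 0.07, and 0.01 over all bodies. In times local background the samples of YEF3 and EFT1 did not overlap between the genotypes, both higher in rpd3Δ, where 17.5% of all bodies did not overlap, 9.57% higher and 7.97% lower. EFT1 did not pass the edgeR test (0.11, SE 0.0874, adjusted p = 0.492), and its scaled counts per bin overlapped.

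**Figure D4:**
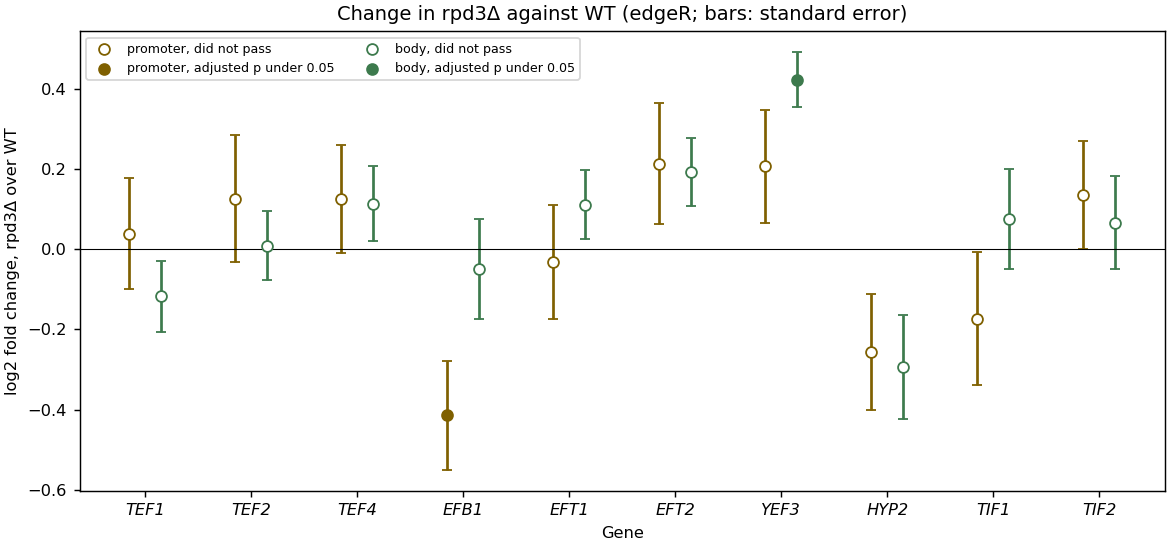
Log2 fold change of rpd3Δ over WT (vertical axis) for the promoter and the body of each of the 10 genes (horizontal axis), from edgeR with standard errors as bars. Filled points passed an adjusted p of 0.05. These are the EFB1 promoter (-0.41) and the YEF3 body (0.42), and the other 18 points are open.

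A list of 40 other translation factor genes was set beside the 10. Their median body signal was 1.08 times local background in rpd3Δ and 1.08 in WT, and their median promoter signal 1.07 in rpd3Δ and 1.10 in WT, close to all genes. Between the genotypes 6.15% of all promoters passed, 1.89% higher and 4.26% lower in rpd3Δ. In this list of 40 genes 3 promoters passed, all higher in rpd3Δ. They were STM1 (0.64, adjusted p = 0.0291), whose product binds ribosomes and preserves them in stress, GCN1 (0.45, adjusted p = 0.0292), which acts in the activation of the kinase Gcn2, and DED1 (0.45, adjusted p = 0.0296), a helicase of initiation. Over bodies, where 7.39% of all genes passed (4.31% higher and 3.08% lower), 2 of the list passed, again higher in rpd3Δ. These were STM1 (0.72, adjusted p = 1.69e-05) and TIF35 (0.44, adjusted p = 0.0376), a subunit of eIF3. STM1 lies on chromosome XII at 440467 to 441288, to the left of the ribosomal DNA, and its values in times local background overlapped between the genotypes in both windows. No interaction term passed in this list by edgeR (3 at an unadjusted p under 0.05).

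In the balance of promoter against body, 8 of the 40 were called higher and 10 lower in rpd3Δ, and 12 higher and 9 lower in WT. Of all genes, 32.6% were called higher and 15.5% lower in rpd3Δ, and 37.5% higher and 14.1% lower in WT. The most promoter-weighted in WT were NEW1 (2.71), an ATPase related to eEF3, CAM1 (1.28), the other gene for the gamma subunit of eEF1B, GCD6 (1.05), a subunit of the exchange factor eIF2B, and TIF5 (0.73), which encodes eIF5. The most body-weighted in WT were HEF3 (-1.16), PAB1 (-0.73), the poly(A)-binding protein, DED1 (-0.65) and SUI1 (-0.57), which encodes eIF1. For HEF3, whose body was near local background (1.09 in WT), the ratio reflects a low upstream window and not a high body. Paralogs outside the 10 genes differed from them in level, given here for 1 window per pair, the promoter for CAM1 and the body for HEF3 and ANB1. CAM1 had a promoter signal of 3.71 times local background in rpd3Δ and 3.35 in WT, where TEF4 had 1.20 and 1.14. This order held for the promoters only. TEF4 was body-weighted in WT (-1.01), and its body had 2.40 times local background in rpd3Δ and 2.27 in WT. CAM1 was promoter-weighted, with a log2 ratio of promoter over body of 1.08 in rpd3Δ and 1.28 in WT. By these ratios the CAM1 body lay below the TEF4 body in both genotypes. A difference between the 2 bodies was not tested. HEF3, a paralog of YEF3 with little expression in growing cells, had a body signal of 1.07 in rpd3Δ and 1.09 in WT, where YEF3 had 2.46 and 2.10. ANB1, the eIF5A gene that is known to be expressed without oxygen, had 0.901 over its body in rpd3Δ and 1.18 in WT, where HYP2 had 2.91 and 3.39.

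The protein-coding genes whose 12 values (log2 promoter and body signal in 6 samples, plus 0.1) lay closest to the median of the 10 were YHB1, YMR051C, YBL005W-B, IRC13 and ENO1. Their Euclidean distance was 0.349 to 0.469, where the 10 genes themselves lay at 0.655 to 2.67 and the median of 5977 genes was 2.77. YHB1 encodes a flavohaemoglobin and ENO1 an enolase of glycolysis. What YMR051C, YBL005W-B and IRC13 encode is not described here, and whether reads inside them could be placed with certainty was not checked. Promoter signal of the 5 genes was 1.31 to 1.40 in rpd3Δ and 1.29 to 1.52 in WT. Their body signal was 1.92 to 2.11 in rpd3Δ and 1.90 to 2.16 in WT. The promoter signal of ENO1 was 1.35 in rpd3Δ and 1.52 in WT, and its body signal 1.93 in rpd3Δ and 1.95 in WT.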

How the data were processed

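Anti-FLAG ChIP-seq of 3 rpd3Δ and 3 WT samples was analysed. Samples were made from cultures of roughly 100 mL, with a 4 h arrest in 5 nM α-factor and fixation in 1% formaldehyde, per the labels' protocols. The tools listed are Bowtie2, SAMtools and bedtools, with build R64, per the submitters' processing notes. Read filters and the handling of reads that match several places are unstated there. The deposited values are raw counts per 50 bp bin (241434 bins, 16 chromosomes), and a read that crosses a bin border may be counted in each bin.

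Gene coordinates were those of RefSeq for R64. Counts were summed per window for 5996 of 6002 protein-coding genes (RPD3, BAR1 and genes in the ribosomal DNA, 6 in all, were left out), and windows with a mean under 10 counts were dropped. Promoters and bodies of the 10 genes held 119 to 2338 counts per sample, and the parts of them and the stretches downstream 32 to 806. Library sizes were set by TMM over 1196 bins of 10 kb outside the ribosomal DNA. Tests were edgeR 4.0.16 quasi-likelihood fits in R 4.3.3 with Benjamini-Hochberg adjustment over all genes at 0.05, checked on simulated counts, with DESeq2 1.42.0 and limma 3.58.1 as alternatives. Two-sided exact permutation tests compared single values. WT samples 1 and 2 were summed as 1 sample in an alternative.

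The 10 genes and the other 40 were chosen with earlier results of these data known. From the 40, up to 4 genes per direction and test were named by size of change, and the paralogs ANB1 and HEF3 were set beside their members. The genes overlapping each upstream window and the 5 genes nearest in profile were named by rule. Among the former are MRL1 (421 bp of the TEF1 window), RRP14 (439 bp of the TEF4 window) and RCK2 (305 bp of the YEF3 window). The comparison along the body was added after the values were seen. Correlations of deviations between samples of the same number were 0.138, -0.0468 and 0.248, so the numbers were not taken to pair samples.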

Additional observations from a re-analysis of the deposited data

How the results depend on the processing

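For promoters, rpd3Δ against WT, the 368 calls became 237 with DESeq2, 172 with WT samples 1 and 2 summed, 12 with local background as offset, 101 with 500 bp windows and 154 with the intergenic part alone, and the 1 call among the 10 genes (EFB1) became 0 in each of these and with TMM over the windows. For bodies 442 became 271 with WT samples 1 and 2 summed and 85 with local background as offset, which also took the YEF3 call (1 to 0). For the interaction 11 became 1 with limma, 33 with a replicate block, 1 with WT samples 1 and 2 summed, 0 with 500 bp windows and 1 with the intergenic part. With 1 sample left out, promoter calls were 108 to 464 (0 to 1 among the 10 genes), body calls 206 to 498 and interaction calls 0 to 17. TMM over the windows moved the split of promoter calls from 113 higher and 255 lower to 222 and 206, and of body calls from 258 and 184 to 234 and 218. The replicate block, whose numbers do not pair the samples, gave 542 promoter and 575 body calls and changed no call among the 10 genes. The causes were not tested.

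Small fold changes changed sign, none of them called unless stated. For promoters, EFT1 was 0.00901 with DESeq2, 0.0137 with TMM over the windows and 0.0113 with local offset, YEF3 was -0.0458 with local offset, TEF1 was -0.0541 with 500 bp and TIF2 -0.0203 with the intergenic part. For the TEF2 body the values were -0.00813 with DESeq2, -0.0101 with TMM over the windows and -0.0935 with local offset. For the interaction, EFT2 was -0.107 and TIF2 -0.0365 with 500 bp, and TIF2 -0.0801 and HYP2 -0.0936 with the intergenic part. For promoter over body in WT, EFT1 was 0.329 and EFT2 0.296 with 500 bp, and EFT1 0.576 (called), EFB1 0.104 and TIF2 0.0765 with the intergenic part. Leaving out 1 sample gave promoter ranges of -0.0229 to 0.107 (TEF1) and -0.198 to 0.0779 (EFT1), body ranges of -0.0651 to 0.0653 (TEF2), -0.108 to 0.0210 (EFB1) and -0.0224 to 0.159 (TIF1), interaction ranges of -0.0616 to 0.109 (TEF4), -0.153 to 0.146 (EFT2), -0.0504 to 0.108 (HYP2) and -0.127 to 0.265 (TIF2), and ranges of promoter over body in WT of -0.139 to 0.0884 (EFT1) and -0.104 to 0.123 (EFT2). The number of the 10 genes called in that last comparison stayed at 6 with each sample left out. At a median of 7 to 12 counts per bin outside the ribosomal DNA, the standard errors were 0.136 to 0.166 for the 10 promoters and 0.0687 to 0.131 for the 10 bodies.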
